A study of Homo sapiens with 2 samples.

Results

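Histone genes were followed in A375 melanoma cells transfected with an siRNA against THOC2 (si-THOC2) or with a control siRNA (NC). The members were all probes whose annotated gene symbol begins with HIST1H, HIST2H, HIST3H, HIST4H, H2AF, H3F3 or H1F, apart from H2AFX. This rule found 107 probes of 84 genes among the 58199 probes and 34757 gene symbols of the array. It took 64 replication-dependent genes of the HIST clusters, 14 variant genes, 4 testis forms, 1 pseudogene and 1 antisense RNA. No measured value entered the rule.

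Histones are the proteins around which nuclear DNA is wound. H2A, H2B, H3 and H4 form the nucleosome core, and linker histone H1 binds where the DNA enters and leaves it. The replication-dependent genes lie in clusters, have no introns and are expressed mainly in S phase, when new DNA has to be packed. Most of their mRNAs end in a short stem-loop in place of a poly(A) tail, which the stem-loop binding protein SLBP holds from cleavage to translation. Variant histones such as H2A.Z, macroH2A and the replacement H3 are made throughout the cell cycle, mostly from genes with introns and with polyadenylated mRNAs. THOC2 is a scaffold subunit of THO, the part of the TREX complex that couples transcription to mRNA export.

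A375 is an established human malignant melanoma cell line. RNA from 1 culture transfected with NC and 1 culture transfected with si-THOC2, taken at 48 h per the labels, was hybridized to 1 single-colour Agilent array each. By the labels the groups differ in the siRNA, and culture and array differ with it and cannot be told apart from it. The methods list several THOC2 siRNAs, and the one used for the array is not named in the paper's text. For both samples the source field names the opposite condition to the title and the description, which were followed here. Without replicates the conditions could not be tested against each other, and each difference given compares these 2 arrays.

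Values are given as the processed signal, which is the background-subtracted intensity of a spot, and as a log2 difference. The log2 difference is si-THOC2 minus NC after each array's log2 signals were reduced by their 75th percentile (6.62 for NC and 6.31 for si-THOC2). Equal signals on both arrays therefore correspond to a positive log2 difference. Apart from the marker sums below, signals were compared within a probe only. Well above background on both arrays were 22207 probes. Repeated spots of other probes gave a technical SD of the log2 difference of 0.06 at log2 signals of 8 or more, 0.11 between 6 and 8 and 0.29 between 4 and 6. This error leaves out the differences between cultures, and each histone probe was present on 1 spot. Both THOC2 probes were lower on the si-THOC2 array, one with a signal of 136 on NC and 40.9 on si-THOC2 (log2 difference -1.42) and the other with 67.3 and 35.1 (-0.63). Of 9 melanocyte lineage markers, 6 exceeded background clearly on 1 or both arrays. The summed signal of the list was 7336 on NC and 6043 on si-THOC2, of which SOX10 alone gave 6196 and 5196. The lineage factors SOX10 and MITF, S100B, S100A1 and the pigment enzyme DCT (dim, with a signal of 18.0 on NC and 24.4 on si-THOC2) were measured on both arrays. The pigment genes PMEL, TYR and TYRP1 were not well above background on either, and MLANA was on si-THOC2 alone, with a signal of 2.94 on NC and 18.7 on si-THOC2. The summed signals of the epithelial, leukocyte, endothelial and fibroblast markers were at most 196, and 6 of these 11 genes were well above background on at least 1 array.

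The stem-loop itself was carried by a few probes. The pattern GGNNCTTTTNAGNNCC, searched on the strand of the probe, was found in 6 of the 107 histone probes (5.61%) and in 7 of all 58199 probes (0.0120%). These windows are shown because they mark probes that reach the mature 3' end of a replication-dependent mRNA, and the capitals mark the 16 letters of the stem-loop pattern. The probes lie, in hg19, at chr6:27776386-27776445 (+), chr6:26184399-26184458 (+), chr6:26200153-26200212 (+), chr6:27778255-27778314 (+), chr6:27798954-27799013 (-) and chr1:149824626-149824685 (+), in the order of the lines.
HIST1H2AI: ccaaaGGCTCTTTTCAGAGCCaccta
HIST1H2BE: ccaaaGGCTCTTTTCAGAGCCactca
HIST1H2BF: ccaaaGGCTCTTTTAAGAGCCa
HIST1H3H: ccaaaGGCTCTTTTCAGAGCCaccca
HIST1H4K: caaaaGGCCCTTTTTAGGGCCcc
HIST2H3A: caaaaGGCTCTTTTCAGAGCCacc
Of these probes, that of HIST1H2BE was not well above background on either array. The other 5 had log2 differences from -0.14 (HIST1H2BF) to 0.11 (HIST2H3A) with a median of -0.06. HIST2H3A, an H3 gene, had a signal of 10868 on NC and 9459 on si-THOC2. HIST1H2BF, an H2B gene, had a signal of 523 on NC and 384 on si-THOC2. HIST2H3A was the only one above 0, and with normexp background correction all 5 were below 0 (-0.23 to -0.03).

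Replication-dependent histone genes as a class lay close to the median of all genes. Of their 64 genes, 62 had a probe well above background on both arrays. HIST1H2BE and HIST2H2BA did not, and the current RefSeq table lists the latter as a transcribed pseudogene. The median log2 difference of the 62 genes was 0.02 (interquartile range -0.08 to 0.11), against 0.04 (-0.12 to 0.20) for all 15647 genes measured on both arrays. The genes ranged from -1.03 (HIST2H2AB) to 0.95 (HIST1H3I). Against the median of all genes, 28 were higher and 34 were lower, and 15 were higher with normexp background correction. The side of 0 on which the class median fell depended on the scaling, since it was -0.05 with quantile normalization and -0.07 with normexp background correction.

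Few histone probes differed by 2-fold. Of the 91 member probes that 1 or both arrays measured well above background, 1 was lower on si-THOC2 by 2-fold or more (HIST2H2AB) and 0 were higher, while of all such probes 3.33% were lower and 2.93% were higher. Of the 90 measured on both arrays, the same 1 was lower and 0 were higher, beside 0.365% and 0.829% of all probes. At 1.5-fold, 2 of 90 were lower (HIST2H2AB and 1 probe of HIST1H4H), beside 2.94% of all probes, and 2 of 90 were higher (HIST1H3I and 1 probe of H1FX-AS1), beside 3.84%. With 1 or 2 members in each, these counts are too small to set against the background shares.

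**Figure D1:**
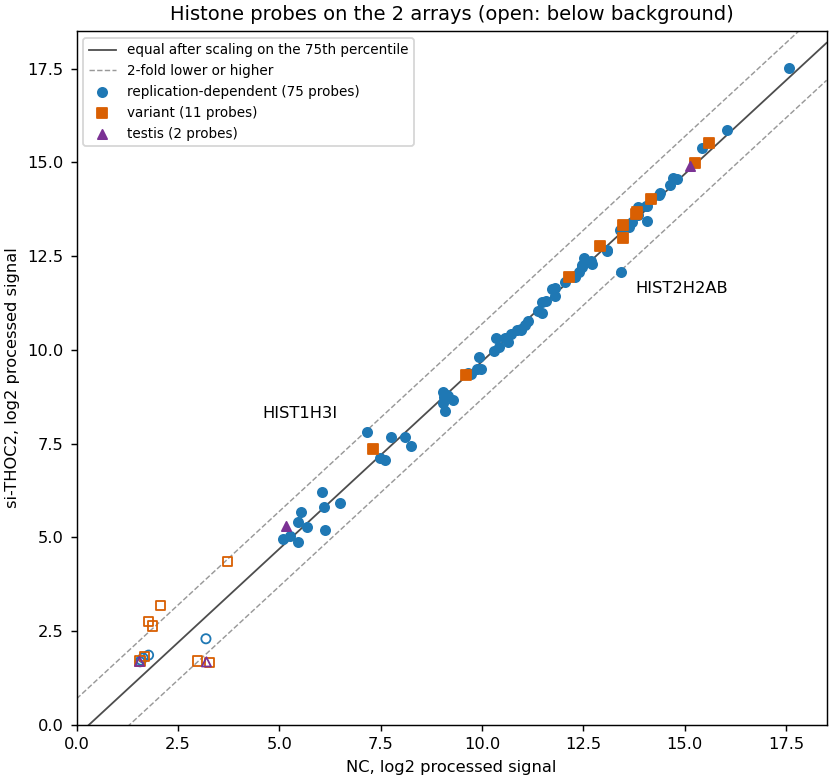
Log2 processed signal of each histone probe on the NC array (x axis) and the si-THOC2 array (y axis), by class, without the pseudogene and the antisense RNA. The solid line marks equal signals after scaling and the dashed lines a 2-fold difference. HIST2H2AB (log2 difference -1.03) lies just outside the lower dashed line and HIST1H3I (0.95) just inside the upper one, and open symbols are probes not well above background on both arrays.

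HIST2H2AB, a replication-dependent H2A gene of the HIST2 cluster, had the lowest log2 difference among the histone probes well above background. Its signal was 10997 on NC and 4346 on si-THOC2, a log2 difference of -1.03 (2.04-fold lower, technical SD 0.06). The difference was -1.17 with normexp background correction, -1.11 with lowess, -1.10 with quantile normalization, -1.07 with median scaling and -1.05 with block centring. The authors' values, which are quantile-normalized, also gave -1.10. Alternatives that change only the filter cannot move the value of a gene with 1 bright probe. The probe lies at chr1:149859185-149859244 on the minus strand (hg19), and its whole sequence is shown because the value rests on this 1 probe, with no letters in capitals.
HIST2H2AB probe: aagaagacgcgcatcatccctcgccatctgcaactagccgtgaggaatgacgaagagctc
The closest other histone probe over at least 40 bases was that of H2AFZ, at 57.5% identity, with a log2 difference of 0.18. Among the 2051 probes whose log2 signals exceeded 12 in both conditions, 4 lay lower and 3 higher by 2-fold or more. Among the 40 measured probes within 5 rows and columns of its spot, the median log2 difference was 0.10, with 0 lower and 1 higher by 2-fold. HIST2H2AC, the convergent H2A gene beside it (chr1:149858863-149858922, plus strand, hg19), had a signal of 14754 on NC and 14292 on si-THOC2 (log2 difference 0.26). The neighbours on the chromosome thus lay on opposite sides of the median of all genes.

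The promoters of HIST2H2AB and HIST2H2AC are shown because these neighbours differed, and that of the variant gene H2AFY because it holds none of the motifs searched. Each is the 250 bases before the RefSeq start in GRCh38.p14, 5' to 3' on the gene's strand. Capitals mark CCAAT on both strands (ATTGG on the opposite one), TATAAA on the gene's strand and the octamer ATGCAAAT on both strands. HIST2H2AB is at chr1:149887966-149888215 (-), HIST2H2AC at chr1:149886668-149886917 (+) and H2AFY at chr5:135399232-135399481 (-).
HIST2H2AB promoter: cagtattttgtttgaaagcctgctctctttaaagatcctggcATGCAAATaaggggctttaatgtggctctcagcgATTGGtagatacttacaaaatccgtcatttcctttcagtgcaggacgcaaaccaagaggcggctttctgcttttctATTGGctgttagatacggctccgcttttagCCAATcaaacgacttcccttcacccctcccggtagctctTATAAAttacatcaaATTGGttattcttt
HIST2H2AC promoter: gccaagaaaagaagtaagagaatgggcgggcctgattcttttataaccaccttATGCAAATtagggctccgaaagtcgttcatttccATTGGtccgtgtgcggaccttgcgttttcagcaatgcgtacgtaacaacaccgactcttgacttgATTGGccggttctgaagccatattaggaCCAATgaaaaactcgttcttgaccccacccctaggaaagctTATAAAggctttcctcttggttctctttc
H2AFY promoter: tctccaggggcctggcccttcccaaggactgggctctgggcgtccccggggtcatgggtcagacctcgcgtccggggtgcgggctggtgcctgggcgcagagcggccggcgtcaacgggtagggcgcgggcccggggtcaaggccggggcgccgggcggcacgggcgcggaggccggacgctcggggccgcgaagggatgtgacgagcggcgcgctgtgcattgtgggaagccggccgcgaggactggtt
Both HIST2 promoters held CCAAT as well as TATAAA and the octamer, whereas HIST2H2AB was lower on si-THOC2 and HIST2H2AC was not. A match gives only the presence of these letters in the window.

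Promoters were found in the RefSeq table for 74 of the 84 genes. CCAAT was present in 49 of 58 replication-dependent promoters (84.5%) and 9 of 12 variant promoters (75%), against 33.0% of all 27305 promoters of this length. It was in every H1, H2A, H2B and H3 promoter of the replication-dependent class and in 3 of 12 H4 promoters. TATAAA was present in 33 of 58 replication-dependent promoters (56.9%), 2 of 12 variant promoters (16.7%) and 7.17% of all promoters. The octamer was present in 24 of 58 (41.4%), against 0 of 12 variant promoters and 1.66% of all. It was found in 10 of 14 H2A and 13 of 17 H2B promoters, in 1 of 10 H3 promoters, and in 0 of 5 H1 and 0 of 12 H4 promoters.

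HIST1H3I, a replication-dependent H3 gene of the HIST1 cluster, had the highest log2 difference among the histone genes measured on both arrays. Its signal was 143 on NC and 223 on si-THOC2, a log2 difference of 0.95 (1.94-fold higher, technical SD 0.11). The probe (chr6:27839857-27839916, minus strand, hg19) is shown because it shares 83.3% of 54 overlapping bases with that of HIST1H3E.
HIST1H3I probe: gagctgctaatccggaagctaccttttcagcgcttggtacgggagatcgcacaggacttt
HIST1H3E had a signal of 5664 on NC and 4893 on si-THOC2 (log2 difference 0.10), so the values of these alike probes were far apart. The spot of HIST1H3I lay where other probes were also higher on si-THOC2. In its block of the slide, 19.9% of the probes that 1 or both arrays measured were higher by 2-fold, and of the 44 measured probes within 5 rows and columns 8 were higher. Centred on the median of its block, its log2 difference was 0.77. The part of the slide position in this value was not tested.

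The 5 replication-dependent H1 genes fell on both sides of the median of all genes, with a median log2 difference of 0.18. HIST1H1A had a signal of 546 on NC and 328 on si-THOC2 (log2 difference -0.42). HIST1H1C, the gene of a somatic linker histone, had a signal of 17258 on NC and 11092 on si-THOC2 (-0.33). Both were below the lower quartile of all genes (-0.12), and both stayed below 0 in each alternative that gave them a value. HIST1H1D (0.25), HIST1H1B (0.22) and HIST1H1E (0.18) were higher. HIST1H1D had a signal of 5884 on NC and 5641 on si-THOC2. No linker histone gene of this class lay between -0.33 and 0.18.

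The 15 H2A genes had a median log2 difference of 0.04 and a wide range. Besides HIST2H2AB, HIST1H2AL was low, with a signal of 90.1 on NC and 60.3 on si-THOC2 (log2 difference -0.27). HIST1H2AH followed at -0.14. HIST3H2A was the highest, with a signal of 66.8 on NC and 74.0 on si-THOC2 (0.46). Next were HIST1H2AE (0.28), HIST2H2AC (0.26), HIST1H2AD (0.23) and HIST1H2AG (0.19). HIST1H2AE had a signal of 1292 on NC and 1269 on si-THOC2. Centred on its block of the slide, HIST1H2AD was at 0.01 in place of 0.23. The other H2A genes lay between -0.11 and 0.15.

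Most H2B genes lay slightly below the median of all genes. Of the 16 measured, 13 had a log2 difference below 0 and 14 were below the median of all genes, with a median of -0.07 (interquartile range -0.12 to -0.03). This median is about the size of the technical SD of 1 bright probe. HIST1H2BG had a signal of 626 on NC and 405 on si-THOC2 (log2 difference -0.32). HIST1H2BN had a signal of 195 on NC and 134 on si-THOC2 (-0.23). HIST1H2BD had a signal of 1010 on NC and 725 on si-THOC2 (-0.17). The H2B genes above the median of all genes were HIST2H2BE (0.19), which was dim with a signal of 33.9 on NC and 31.1 on si-THOC2, and HIST1H2BH (0.05). The H2B median was below 0 in all 10 alternatives (-0.16 to -0.06), and 14 or 15 genes were below the median of all genes in each. The pattern was noticed after the values were seen. Many H2B probes are also alike, such as those of HIST1H2BD and HIST1H2BK (92.7% of 55 bases), so the genes are not all separate readings. Others were less alike, such as HIST1H2BF (closest at 60.7% of 56 bases).

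Of the 12 H3 genes, 10 were above the median of all genes, with a median log2 difference of 0.09. Apart from HIST1H3I they lay close together, from -0.04 (HIST1H3H) to 0.18 (HIST1H3D). HIST1H3D had a signal of 26706 on NC and 24481 on si-THOC2. HIST1H3C had a signal of 21629 on NC and 18688 on si-THOC2 (log2 difference 0.10). With normexp background correction the H3 median was -0.04, so its side of 0 was not stable. Most H3 genes have a probe much like that of another member, such as HIST1H3F and HIST1H3H (89.5% of 57 bases). The count of 10 therefore does not rest on separate readings throughout.

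The 14 H4 genes had a median log2 difference of 0.02, with 6 above and 8 below the median of all genes. HIST1H4H was the lowest at -0.38, as the mean of 2 probes that differed. HIST4H4, the single gene of the HIST4 cluster, had a signal of 44.1 on NC and 29.1 on si-THOC2 (log2 difference -0.29, technical SD 0.29). HIST1H4G was the highest, with a signal of 46.2 on NC and 50.8 on si-THOC2 (0.45, technical SD 0.29). Both of these dim genes lay within 2 technical SDs of 0. HIST1H4B had a signal of 43705 on NC and 42573 on si-THOC2 (0.27). HIST1H4C was read by 2 probes, one with a signal of 193557 on NC and 186305 on si-THOC2 (0.25) and the other with 1586 and 1183 (-0.11). By cluster, the median was 0.00 for the 51 HIST1 genes on chromosome 6, 0.10 for the 8 HIST2 genes and 0.17 for the 2 HIST3 genes.

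**Figure D2:**
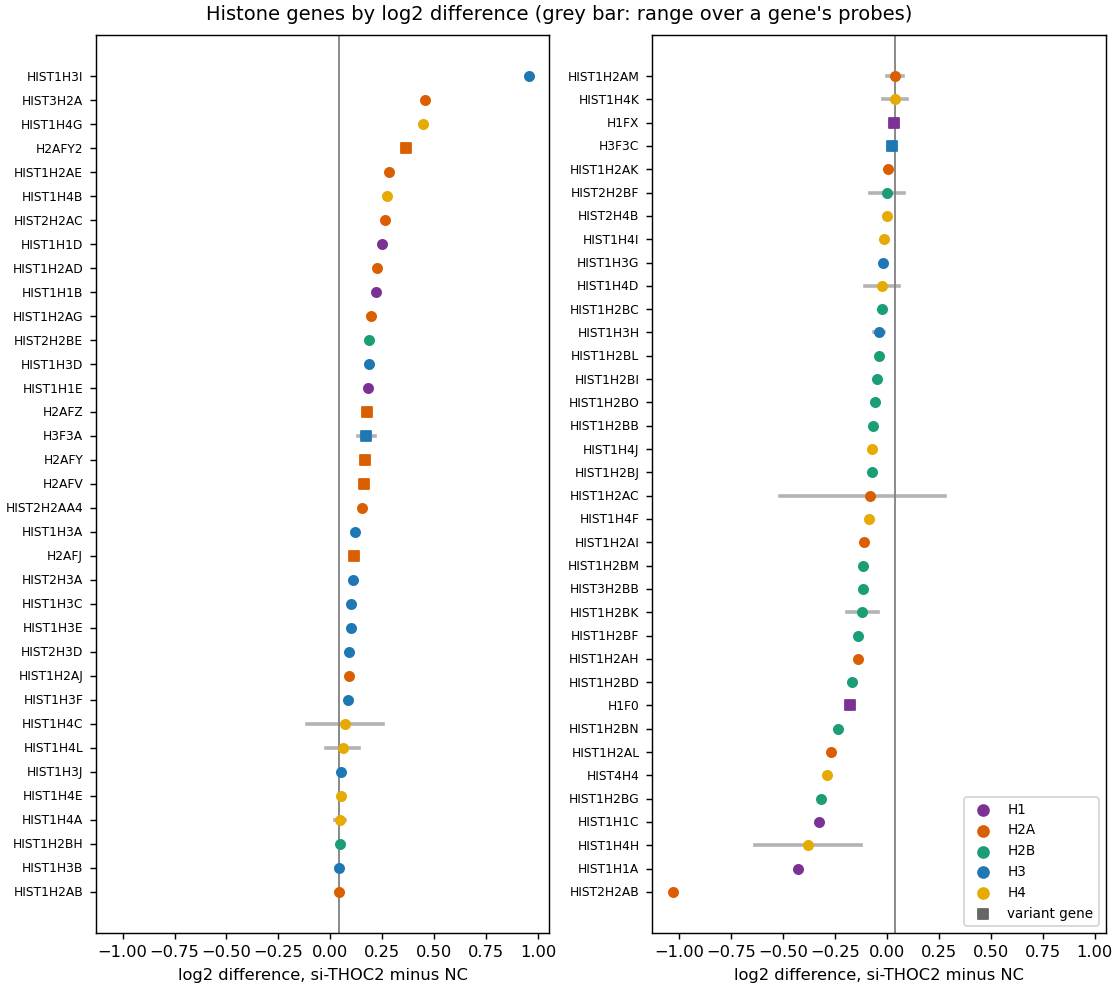
Log2 difference, si-THOC2 minus NC, of each replication-dependent gene (circles) and variant gene (squares) measured on both arrays, in order from the highest (top left) to the lowest (bottom right) and coloured by histone type. Grey bars span the probes of a gene and the vertical line is the median of all genes (0.04). Most genes lie near the line, with HIST1H3I at 0.95 and HIST2H2AB at -1.03 apart from the others.

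The variant histone genes had a small positive median. The 9 of 14 genes measured on both arrays had a median log2 difference of 0.16 (interquartile range 0.03 to 0.17), 8 were above 0, and 6 were above the median of all genes. Of all 15647 genes, 8883 were above 0, and counts over 9 genes say little beside that share. The median stayed above 0 in all 10 alternatives (0.02 to 0.25). H2AFZ, which encodes H2A.Z, had a signal of 18323 on NC and 16700 on si-THOC2 (log2 difference 0.18). H2AFV, its close paralog, had a signal of 14532 on NC and 13111 on si-THOC2 (0.16). The macroH2A genes were also on the high side. H2AFY had a signal of 7662 on NC and 6942 on si-THOC2 (0.17). H2AFY2 had a signal of 159 on NC and 164 on si-THOC2 (0.36, technical SD 0.11), the highest of the class. H3F3A, the gene of the replacement H3, was read by 3 probes with log2 differences of 0.13, 0.16 and 0.21. Its brightest probe had a signal of 49814 on NC and 46631 on si-THOC2.

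The remaining variants were nearer to the median of all genes or below it. H2AFJ had a signal of 4507 on NC and 3931 on si-THOC2 (log2 difference 0.11). H1FX, a linker histone outside the clusters, had a signal of 781 on NC and 644 on si-THOC2 (0.03). H3F3C, an intronless relative of H3F3A, had a signal of 39415 on NC and 32376 on si-THOC2 (0.03), and its probe shares 82.2% of 45 bases with that of HIST1H3F. H1F0, the linker histone associated with differentiated and resting cells, was the only measured variant below 0 at this scaling, while H1FX was below 0 in 6 and H3F3C in 5 of the 9 alternatives. Its signal was 11460 on NC and 8172 on si-THOC2 (-0.18), and it stayed between -0.26 and -0.18 in the 9 alternatives. H1FNT, a linker histone of the testis, was well above background on si-THOC2 alone, with a signal of 13.2 on NC and 20.5 on si-THOC2. It was at least 1.74-fold higher at this scaling (technical SD 0.29), but its log2 difference was 0.29 with normexp background correction. H1FOO, an oocyte linker histone, and H2AFB1, H2AFB2 and H2AFB3 were not well above background on either array.

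Among the testis forms, HIST3H3 had a signal of 36022 on NC and 30533 on si-THOC2 (log2 difference 0.07), but its probe shares 85% of 40 bases with that of HIST2H3D and its source in these cells is uncertain. HIST1H2AA had a signal of 36.1 on NC and 39.4 on si-THOC2 (0.43, technical SD 0.29). HIST1H1T, HIST1H2BA and the pseudogene HIST1H2APS1 were not well above background on either array. H1FX-AS1, the antisense RNA of H1FX, had 2 measured probes that differed, one with a signal of 19.4 on NC and 26.8 on si-THOC2 (0.77) and the other with 29.0 and 22.2 (-0.08). In all, 16 member probes were not well above background on either array, with signals of at most 9.77.

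The comparison of the classes gave a small difference. The median of the replication-dependent genes minus that of the variant genes was -0.14 on the log2 scale, and it was below 0 in all 10 alternatives (-0.22 to -0.10). The measured variant genes were all of the H1, H2A or H3 type. The replication-dependent class also held H2B (median -0.07) and H4 (0.02) genes. By type, H1F0 (-0.18) and H1FX (0.03) lay below the replication-dependent H1 median of 0.18. H3F3A (0.17) and H3F3C (0.03) lay on either side of the H3 median of 0.09. The H2A variants (0.11 to 0.36) lay above the H2A median of 0.04. The difference of the classes thus did not hold within each type. The ranges of the classes overlapped, since all 9 variant genes lay inside the range of the replication-dependent genes. The probes of the classes also differed in base composition, with a median GC content of 53.3% in the replication-dependent class and 43.3% in the variant class. Over all measured probes the median log2 difference was -0.02 under 40% GC, 0.05 from 40 to 50%, 0.10 from 50 to 60% and 0.12 above. Between 50 and 60% GC, the 50 replication-dependent probes had a median of -0.00 and the 3 variant probes one of 0.03, and between 40 and 50% the 18 replication-dependent and 6 variant probes had medians of 0.01 and 0.16. The part of base composition in the class difference was not tested.

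Genes that accompany histone synthesis in S phase were higher on si-THOC2 than the replication-dependent histones. All 20 genes of the S-phase list were measured, with a median log2 difference of 0.37, against 0.04 for all genes. Above 0 were 18 of the 20, beside 8883 of all 15647 genes. The S-phase median minus that of the replication-dependent histone genes was 0.34. E2F1, a transcription factor of the G1 to S transition, had a signal of 333 on NC and 440 on si-THOC2 (log2 difference 0.71). MCM5 (0.69) and MCM2 (0.58), subunits of the replicative helicase, and CDT1 (0.66), which loads it, were also higher. MCM2 had a signal of 1311 on NC and 1580 on si-THOC2. PCNA, the sliding clamp, was at 0.34. Below 0 were CCNE2, a cyclin gene with a dim probe (-0.11, technical SD 0.29), and RPA2 (-0.12). RPA2 is a subunit of the single-strand binding complex, and its 2 probes were at -0.44 and 0.20.

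The factors that make and degrade histone mRNA were nearer to the median of all genes. Of 20 genes 18 were measured, with a median log2 difference of 0.15 (0.06 with normexp background correction), and 12 were above 0, a share near that of all genes. SLBP, the stem-loop binding protein, had a signal of 1619 on NC and 1708 on si-THOC2 (log2 difference 0.39). CASP8AP2, a component of the histone locus body, was at 0.51 but dim, with a signal of 17.8 on NC and 20.5 on si-THOC2. ZCCHC6, a terminal uridylyltransferase, was the highest, with a signal of 65.4 on NC and 96.3 on si-THOC2 (0.87). The lowest were the cap-binding subunits NCBP2 (-0.25) and NCBP1 (-0.23) and the decay factor LSM1 (-0.11). NPAT, the factor that activates histone transcription, was well above background on NC alone, with a signal of 19.0 on NC and 11.2 on si-THOC2, and CPSF2 was not on either array.

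Histone chaperones and exchange factors showed values on both sides. Of 24 genes 23 were measured, with a median log2 difference of 0.11, and 14 were above the median of all genes. CHAF1A, the large subunit of the replication-coupled H3-H4 chaperone, was at 0.49 over 2 probes, and its brighter probe had a signal of 1528 on NC and 1750 on si-THOC2. HIRA, which deposits the replacement H3 outside S phase, had a signal of 1248 on NC and 1401 on si-THOC2 (0.48). TONSL, a reader of new H4, was at 0.45, but its 2 probes measured on both arrays were at 0.09 and 0.81. The signals of these probes on NC were 89044 and 67.6. A further TONSL probe was well above background on NC alone, with a signal of 28.9 on NC and 16.3 on si-THOC2. The lowest were ATRX (-0.44), which acts with DAXX at heterochromatin, SRCAP (-0.33), which inserts H2A.Z, and NASP (-0.27), which holds soluble H3 and H4. SRCAP and NASP each rest on 1 dim probe with a technical SD of 0.29. ASF1A was well above background on NC alone.

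**Figure D3:**
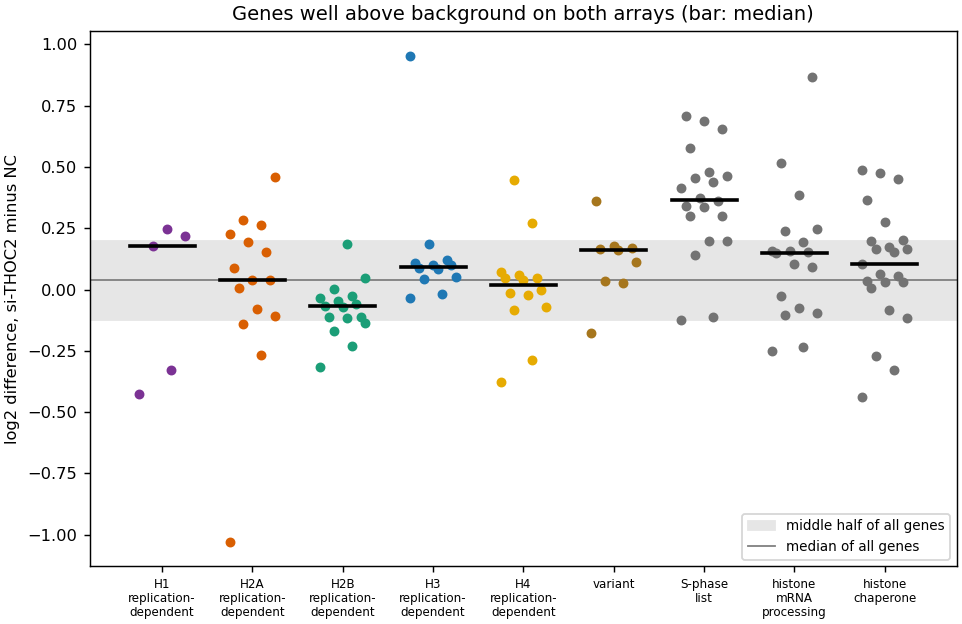
Log2 difference, si-THOC2 minus NC, of genes measured on both arrays, with 1 point per gene and a black bar at each median. The grey band is the interquartile range of all genes (-0.12 to 0.20) and the grey line their median. The medians of the replication-dependent types and of the variant genes (0.16) lie inside the band, and that of the S-phase list (0.37) lies above it.

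Many H2A and H2B genes stand head to head and share the DNA between their starts. Among the 58 replication-dependent genes with a RefSeq promoter, 12 such arrangements had starts within 1000 bases of each other. All were of measured genes, and 10 of them join an H2A with an H2B gene. Genes without such an entry were not searched, so the set may be incomplete. HIST1H2BK (-0.12, with a probe at chr6:27114437-27114496, minus strand, hg19) and HIST1H2AH (-0.14, at chr6:27115246-27115305, plus strand) are not among the 12. The 12 are not all separate, since HIST1H2BF is counted with HIST1H2AD and again with HIST1H3D, each at 223 bases between starts. The H2A gene had the higher log2 difference in 8 of the 10, with a median H2A minus H2B of 0.22 (range -0.07 to 0.60). The widest gap was between HIST1H2AE (0.28) and HIST1H2BG (-0.32), whose starts lie 233 bases apart. HIST3H2A (0.46) and HIST3H2BB (-0.11) came next, both dim. In HIST1H2AC with HIST1H2BC and in HIST1H2AI with HIST1H2BL the H2B gene was higher, by 0.06 and 0.07. Over all 12 arrangements the gap between the genes ranged from 0.04 to 0.60, with a median of 0.22. The H2A gene was higher in 6 to 8 of the 10 in the alternatives. These counts follow in part from the low H2B values above, and the arrangement was looked at after the values were seen.

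In 4 replication-dependent genes, 2 measured probes lay over 1000 bases apart, and the downstream one was the lower in all 4. HIST1H2AC had a signal of 1248 on NC and 1003 on si-THOC2 at the upstream probe (log2 difference -0.01). Its downstream probe, 14361 bases further on in hg19, had a signal of 304 on NC and 172 on si-THOC2 (-0.51). HIST1H4H had a signal of 8754 on NC and 6474 on si-THOC2 upstream (-0.13). Its probe 4211 bases downstream had a signal of 70.3 on NC and 36.6 on si-THOC2 (-0.63, technical SD 0.29). Whether such a distant probe reads a longer transcript of the gene was not tested. HIST1H2BK was at -0.04 upstream and -0.19 at a probe 8246 bases downstream. HIST2H2BF was at 0.08 upstream, where it was dim, and -0.08 at a probe 1484 bases downstream. With normexp background correction the downstream probe was the lower in 3 of 4. These downstream probes had 36.7 to 38.3% GC and the upstream ones 45 to 55%. The downstream probes were the only measured replication-dependent probes under 40% GC, with a median log2 difference of -0.35. All measured probes under 40% GC had a median of -0.02. Base composition thus went with position here, and its part was not tested. The downstream probes of HIST1H2AG and HIST2H2BE were not well above background on either array.

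**Figure D4:**
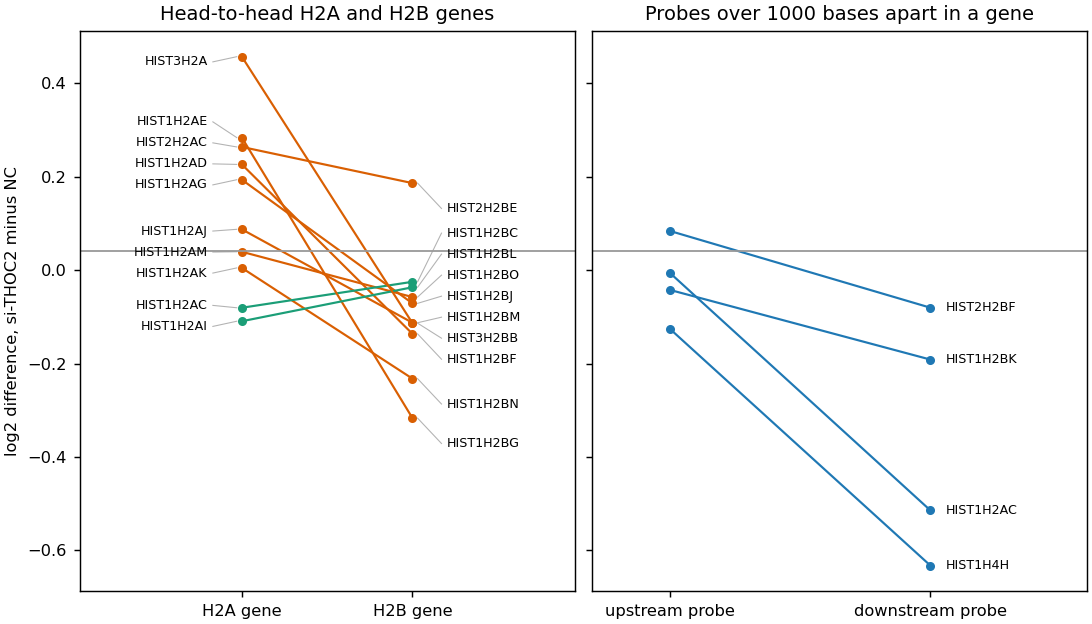
Log2 difference, si-THOC2 minus NC, of head-to-head H2A and H2B genes (left, orange where the H2A gene was higher and green where the H2B gene was) and of probes over 1000 bases apart in a gene (right). Lines join the genes or probes compared and the horizontal line is the median of all genes (0.04). The H2A end is higher in 8 of 10 and the downstream end is lower in 4 of 4, where the downstream probes also have the lower GC content.

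Histone genes are near-copies of each other, which limits how far single values can be assigned. Of 80 replication-dependent probes, 34 shared at least 80% and 10 at least 90% of 40 or more bases with the probe of another member gene. In the 12 replication-dependent genes with several measured probes, the probes differed by 0.01 to 0.79 on the log2 scale (median 0.15), most in HIST1H2AC, and in 0 genes by 1 or more. The labelling protocol does not say how the RNA was primed. An oligo(dT) primer would reach replication-dependent mRNAs only through polyadenylated forms, and this could not be told from the files.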

How the data were processed

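RNA of 1 NC and 1 si-THOC2 culture was measured on 1 array each, so the number of arrays limits the precision. The authors deposited scanner output with the intensity of each spot, made with Agilent Feature Extraction 10.7.1.1, and quantile-normalized log2 values of both arrays, used here as an alternative. Their deposited comparison table of fold changes was not used. Groups followed sample titles and descriptions.

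Of 60901 non-control spots, outlier-flagged ones (147 on NC, 168 on si-THOC2) were left out, none was saturated, and log2 signals were averaged per probe and reduced by the array's 75th percentile. Each gene was given the average over its probes well above background on both arrays. A fold is a bound where only 1 array measured the probe. Promoters come from RefSeq GRCh38.p14 and probe positions from the deposited annotation (hg19). Exons and UTRs were not analysed here. No test was possible.

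Members and lists were chosen with earlier results of these data known. The genes to be named were THOC2, members measured on both arrays (per class the 10 highest and 10 lowest, members at 2-fold and genes with discordant probes) and the 3 highest and 3 lowest of each other list with SLBP, NPAT, CASP8AP2, PCNA and MCM2. Of the genes this rule takes in, 1 is not reported here. Alternatives were quantile, median and lowess (span 0.3) scaling, normexp (offset 50), centring by 128 slide blocks, the authors' values, other filters, probes for genes and a fold of 1.5. On simulated data of the si-THOC2 against NC comparison (22207 probes), 200 of 200 changed probes were recovered with 4 false calls. The changes were planted at 1.5 log2 units, beyond the 2-fold call, in brighter probes, with only the error of repeated spots added. The simulation therefore cannot speak to smaller differences or to differences between cultures. Python 3.11.15 (numpy 2.4.6, pandas 2.3.3, statsmodels 0.14.6) and R 4.3.3 (limma 3.58.1) were used.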

Additional observations from a re-analysis of the deposited data

How the results depend on the processing

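Under the alternatives, 77 of 100 values of the main results stayed within the tolerance set for them. For medians this was a move of less than the technical SD of 0.06, and for counts a ratio of at most 1.5. Not all of the 100 could move. Median scaling shifts every probe alike, so it leaves the class difference and the counts above the median of all genes unchanged. The authors' values are quantile-normalized and so largely repeat that alternative. The median of the replication-dependent genes (0.02) was -0.049 under quantile normalization, -0.052 under lowess, -0.074 under normexp background correction and -0.049 with the authors' values. The median of the variant genes (0.16) was 0.075 under quantile normalization, 0.071 under lowess, 0.023 under normexp, 0.10 with block centring, 0.074 with the authors' values and 0.25 without a detection filter. The class difference was -0.22 without the filter. Replication-dependent genes above the median of all genes (28) numbered 20 with quantile normalization, 18 with lowess and 15 with normexp. The 20 counts as within the tolerance. Without the filter they numbered 10, and the median of all genes was 0.24. The S-phase median was 0.23 with normexp, the processing median 0.091 with lowess and 0.056 with normexp, and the chaperone median 0.031 with normexp. Probes lower by the fold numbered 3 without the filter and 2 at 1.5-fold, and probes higher by it numbered 1 with lowess, 3 without the filter and 3 at 1.5-fold, where probes measured on at least 1 array are counted and H1FNT is added. The added probes come from the looser filter or fold by construction, and the cause of the other changes was not tested. The S-phase, processing and chaperone medians stayed above 0 in all 10 alternatives. Results by histone type, head-to-head genes and downstream probes were put through the same alternatives, chosen after seeing the data. Leaving out a replicate was not possible with 1 array per group. No paired analysis was possible because each condition has 1 array. Differences of dim probes (technical SD 0.29 or more) are limited by signal over background.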
